A study of Rattus norvegicus with 18 samples.

Results

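Genes of mesothelial cells and of mesothelioma were examined in the lungs of rats that had received a multiwalled carbon nanotube (MWCNT). The 10 genes *Msln*, *Wt1*, *Upk1a*, *Upk1b*, *Upk3b*, *Lrrn4*, *Muc16*, *Calb2*, *Nf2*, and *Bap1* were chosen by name and looked up in the symbol column of the deposited tables, and 9 of them were found among 22081 genes. *Muc16* was not analysed here. The 18 samples were male F344 rats (F344/DuCrlCrlj) in 6 groups of 3 animals, with a vehicle control group and a group given MWCNT at 0.5, 1, and 2 years of dosing (Year 0.5, 1, and 2). From 9 weeks of age, treated rats received MWNT-7 into the trachea at 0.5 mg/kg body weight once every 4 weeks, 26 times in the full 2 years. Control rats received the vehicle, saline with Tween 80, by the same route. RNA was taken from 1 small piece of the accessory lobe of each rat after tissue with visible tumor nodules had been excluded. The lobe was also examined by histology for tumors, and how much pleural surface each piece held is not given in the sources used here. In such bulk samples, fewer cells of a type and less RNA per cell cannot be told apart.

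Mesothelial cells form the single layer of cells that covers the lung and lines the pleural cavity. They make a lubricating, antiadhesive surface, and long thin fibers that reach the pleura can give rise to mesothelioma, their malignant tumor. Mesothelin (*Msln*) is a surface glycoprotein used as a marker and drug target in mesothelioma, *Wt1* encodes a transcription factor of the mesothelial lineage, and *Lrrn4* encodes a leucine-rich repeat membrane protein. *Upk1b* and *Upk3b* encode uroplakins that mesothelial cells produce, whereas *Upk1a* is known mainly from the bladder urothelium. *Calb2* encodes calretinin, a calcium-binding protein and diagnostic marker. *Nf2*, which encodes the Hippo pathway activator merlin, and *Bap1*, which encodes a nuclear deubiquitinase, are tumor suppressors that mesotheliomas often lose, and most cell types express both.

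Length-scaled expression (TPM) ranked the genes in the 9 control rats. The mean TPM was 64.7 ± 2.31 for *Bap1*, 61.6 ± 3.80 for *Nf2*, and 60.6 ± 18.3 for *Msln* (SD, n = 9), and these neighbours did not differ beyond their spread. *Upk3b* followed at 28.2 ± 7.67, *Upk1b* at 17.4 ± 3.83, and *Lrrn4* at 12.1 ± 4.08 TPM (SD, n = 9), and the ranges of each neighbouring pair overlapped. *Upk1a* (3.55 ± 1.67 TPM) and *Wt1* (3.31 ± 1.68 TPM) lay together below these, and *Calb2* was lowest at 0.527 ± 0.733 TPM (SD, n = 9). The mesothelial markers were thus present in every piece of lung, with the exception of *Calb2*, which had 0 or 1 count in each of the 12 rats of Year 0.5 and Year 1. Levels below are CPM, counts scaled to a common library size and adjusted by the TMM method, given in the order of the replicates. A gene "rose" or "fell" where the false discovery rate (FDR) of edgeR's quasi-likelihood test was below 0.05, and it was a differentially expressed gene (DEG) where the absolute log2 fold change was also above 1.

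Of 8 genes tested at Year 0.5, *Upk1a* and *Nf2* fell, 2 genes or 25.0%, beside 38.8% of all genes tested, of which 20.2% were higher and 18.6% lower in treated rats. At Year 1, *Msln*, *Wt1*, and *Lrrn4* rose and *Upk1a* and *Nf2* fell, 5 of 8 genes beside 41.2% of all genes (21.6% higher and 19.6% lower). At Year 2, *Msln* rose and *Upk1a*, *Upk1b*, *Upk3b*, and *Nf2* fell, 5 of 9 genes beside 49.2% of all genes (25.2% higher and 24% lower). Over the 3 years in one model of the 18 rats, the mean effect was a rise for *Msln* and a fall for *Upk1a*, *Upk1b*, *Upk3b*, and *Nf2*, 5 of 9 genes beside 66.1% of all genes (32.7% higher and 33.4% lower). The shares lay below those of all genes at Year 0.5 and for the mean effect and above them at Years 1 and 2, so the number of calls did not set these genes apart. *Upk1a* was the only DEG among them, at each of the 3 time points, beside DEG shares of 9.1%, 10.2%, and 16.4% of all genes (3.03%, 4.09%, and 8.22% lower in treated rats). It passed the filter on low counts only through the control rats, in which it was high. When the 18 rats were fitted as one model, only *Upk1a* and *Nf2* passed the test at Year 1, 2 of 9 genes. Of all genes, 6702 of 14843 passed there.

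**Figure D1:**
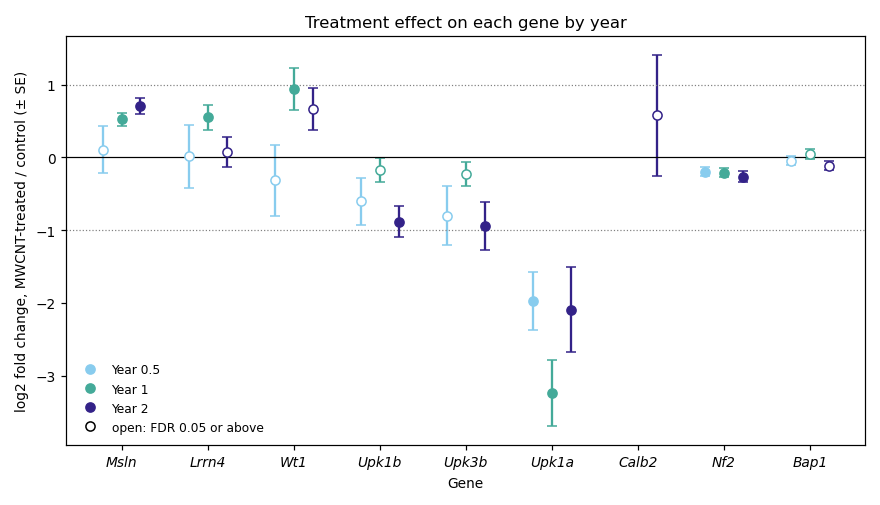
The log2 fold change of each gene in MWCNT-treated against control rats (vertical axis, ± SE) is plotted for Years 0.5, 1, and 2, with filled points where the FDR was below 0.05 and dotted lines at an absolute log2 fold change of 1. *Msln* lay above 0 and *Upk1b*, *Upk3b*, *Upk1a*, and *Nf2* lay below it at every time point, and *Upk1a* alone lay past the lower dotted line with a filled point (*Calb2* was tested at Year 2 only).

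*Msln*, on the minus strand of chr10:15119663-15125408 (Rnor_6.0, the build named in the submitters' processing notes), had the highest level of the mesothelial markers among the 9 genes. In the control rats its CPM was 32.4, 61.8, and 104 at Year 0.5, 64.7, 63.2, and 65.8 at Year 1, and 60.9, 50.5, and 70.9 at Year 2. Among the treated rats its CPM was 71.2, 71.4, and 72.7 at Year 0.5, 103, 86.5, and 88.4 at Year 1, and 94.6, 102, and 99.9 at Year 2. The control rats of Year 0.5 spread on both sides of the treated rats, whereas all treated rats of Years 1 and 2 were above their controls. *Msln* rose by a log2 fold change of 0.52 ± 0.08 (SE, FDR = 0.0014) at Year 1 and of 0.71 ± 0.11 (SE, FDR = 0.000812) at Year 2, and both calls were kept when any 1 rat was left out. In the model of all 18 rats the value at Year 1 had an FDR of 0.102, and the mean effect of 0.45 ± 0.14 (SE, FDR = 0.0116) was 0.31 with an FDR of 0.067 with library size only. At Year 0.5 the log2 fold change was 0.11, with a 95% confidence interval from -0.62 to 0.84, and it was -0.22 without control replicate 1.

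*Wt1* (plus strand, chr3:95133713-95180564) was low and variable. Its CPM in the control rats was 1.11, 3.72, and 6.21 at Year 0.5, 4.88, 2.21, and 3.16 at Year 1, and 3.83, 4.42, and 8.18 at Year 2. Treated rats had 2.78, 3.28, and 2.80 at Year 0.5, 8.25, 5.46, and 5.83 at Year 1, and 7.82, 10.6, and 7.41 at Year 2. The groups were separate at Year 1 only, where every treated rat was higher. There *Wt1* rose by a log2 fold change of 0.94 ± 0.29 (SE, FDR = 0.0302), a call that was lost without control replicate 2, control replicate 3, or MWCNT replicate 1 (FDR = 0.0894, 0.0937, and 0.0979). At Year 2 the value was 0.66 ± 0.29 (SE, FDR = 0.0846), and without control replicate 3 it was 1.07 with an FDR of 0.00507.

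*Lrrn4* (minus strand, chr3:125523781-125533600) had a CPM of 4.54, 16.2, and 22.6 in the control rats of Year 0.5, 16.4, 13.3, and 14.7 at Year 1, and 12.7, 15.2, and 19.5 at Year 2. The MWCNT-treated rats had 13.7, 13.6, and 16.5 at Year 0.5, 26.8, 16.4, and 21.7 at Year 1, and 11.9, 19.6, and 18.2 at Year 2. Only at Year 1 were the treated rats all above the controls, the closest pair being nearly equal. *Lrrn4* rose there by a log2 fold change of 0.55 ± 0.17 (SE, FDR = 0.0302), but the call was lost without control replicate 2 or 3 or MWCNT replicate 1 or 3, with an FDR of up to 0.104. It was also lost when counts were scaled by library size only (FDR = 0.0809), as was that of *Wt1* (FDR = 0.0507). At Years 0.5 and 2 the log2 fold changes of 0.01 and 0.08 had intervals from -0.97 to 1.00 and from -0.39 to 0.55, and both turned below 0 with library size only.

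*Upk1b* and *Upk3b* are shown with the 250 bases before their transcription start, because they moved together from rat to rat, and *Lrrn4*, which moved with them, is shown for comparison. The sequences are RefSeq's, on build GRCr8, read 5′ to 3′ on the strand of the gene, at chr11:75459131-75459380 (plus strand), chr12:26274241-26274490 (minus strand), and chr3:140603987-140604236 (minus strand). Capitals mark the hexamer GGAATG, the core of the sites that TEAD factors of the Hippo pathway bind, or its reverse complement CATTCC.
Upk1b: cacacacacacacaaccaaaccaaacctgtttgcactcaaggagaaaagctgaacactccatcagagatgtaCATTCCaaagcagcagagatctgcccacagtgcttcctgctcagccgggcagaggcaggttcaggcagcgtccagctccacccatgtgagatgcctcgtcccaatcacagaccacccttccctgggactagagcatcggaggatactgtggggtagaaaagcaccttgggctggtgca
Upk3b: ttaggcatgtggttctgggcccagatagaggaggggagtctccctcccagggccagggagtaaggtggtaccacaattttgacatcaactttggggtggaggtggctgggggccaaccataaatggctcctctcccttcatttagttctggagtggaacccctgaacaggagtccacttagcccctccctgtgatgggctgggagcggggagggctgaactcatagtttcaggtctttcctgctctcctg
Lrrn4: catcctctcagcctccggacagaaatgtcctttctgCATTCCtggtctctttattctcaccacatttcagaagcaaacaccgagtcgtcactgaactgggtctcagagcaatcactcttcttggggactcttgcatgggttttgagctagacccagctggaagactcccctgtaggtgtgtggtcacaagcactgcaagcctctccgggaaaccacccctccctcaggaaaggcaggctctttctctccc
Among the 7 of these genes with a RefSeq promoter sequence, the hexamer was in the windows of *Upk1b*, *Lrrn4*, and *Bap1*, 178, 214, and 203 bases before the start. The annotated start of *Upk1a*, which is among the 7, may not be its transcription start. The hexamer was in 12.1% of the 33469 windows of the same length. A match is a description of the letters in the window and not a bound site.

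*Upk3b* (minus strand, chr12:23676152-23682381 on Rnor_6.0) had a CPM of 6.40, 17.9, and 23.0 in the control rats of Year 0.5, 17.1, 17.6, and 14.8 at Year 1, and 15.5, 16.6, and 16.8 at Year 2. The treated rats of these years had 7.92, 7.31, and 12.1 at Year 0.5, 18.1, 12.1, and 12.1 at Year 1, and 3.51, 11.5, and 10.1 at Year 2. Control replicate 1 of Year 0.5 was low and lay below every treated rat of its year, and only at Year 2 were the groups separate. *Upk3b* fell by 0.95 ± 0.33 on the log2 scale (SE, FDR = 0.0392) at Year 2, but without control replicate 1, 2, or 3 of that year the FDR was 0.0794, 0.0892, and 0.0772, and in the model of all 18 rats it was 0.0505. At Year 0.5 the log2 fold change was -0.80 ± 0.40 (SE, FDR = 0.148), and it was -1.19 with an FDR of 0.00896 without control replicate 1. At Year 1 it was -0.23 ± 0.17 (SE, FDR = 0.30), and -0.45 with an FDR of 0.0266 without MWCNT replicate 1.

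*Upk1b* (plus strand, chr11:64522130-64553228) had a CPM of 8.38, 16.5, and 19.99 in the control rats of Year 0.5, 15.6, 13.6, and 16.8 at Year 1, and 15.1, 14.7, and 19.0 at Year 2. For the treated rats the values were 10.8, 6.76, and 12.4 at Year 0.5, 17.2, 11.3, and 12.5 at Year 1, and 5.92, 10.9, and 9.35 at Year 2. Every treated rat of Year 2 was below every control rat, and the groups overlapped in the earlier years. At Year 2 *Upk1b* fell, with a log2 fold change of -0.89 ± 0.21 (SE, FDR = 0.0077), and the call was kept when any 1 rat was left out. Over the 3 years the mean log2 fold change was -0.55 ± 0.16 (SE, FDR = 0.00695) for *Upk1b* and -0.66 ± 0.22 (SE, FDR = 0.0141) for *Upk3b*, and both were kept in each of 18 fits that left out 1 rat. At Year 0.5, *Upk1b* had a log2 fold change of -0.60 (FDR = 0.167), which was -0.90 with an FDR of 0.0304 without control replicate 1.

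*Upk1a* (minus strand, chr1:89060581-89068348), known mainly from the bladder urothelium, rested on few reads. Its counts in the control rats were 25, 14, and 28 at Year 0.5, 38, 44, and 62 at Year 1, and 49, 19, and 14 at Year 2. Counts in the treated rats were 4, 7, and 7, then 2, 3, and 9, then 8, 7, and 4. No treated rat had more than 9 counts and no control rat fewer than 14, so the 9 treated and 9 control rats did not overlap in CPM (0.133 to 0.596 against 0.979 to 3.36). *Upk1a* fell in every year, with log2 fold changes of -1.98 ± 0.40, -3.24 ± 0.45, and -2.09 ± 0.58 (SE, FDR = 0.00466, 0.000663, and 0.0153), which is 3.94, 9.46, and 4.27 times lower. At Year 2 the call was lost without control replicate 1 (-1.34, FDR = 0.0678), the highest control rat, or without MWCNT replicate 3 (-1.84, FDR = 0.0558). The gene entered each test only through the control rats, in which it was high, because no treated rat reached 10 counts. Its FDR values are therefore given as a description. A filter of at least 10 counts in every rat removed the gene from all tests.

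Of the 3 other uroplakin genes, *Upk3a* was tested at every time point and passed at none (log2 fold changes of 0.35, 1.08, and 1.65, the last with an FDR of 0.0675). Its mean effect over the 3 years was 1.02 ± 0.40 (SE, FDR = 0.0306). *Upk3bl1*, named after its values were seen, had 0 counts in 8 of 9 control rats and 5 in the other, and 3 to 17 counts in every MWCNT-treated rat. *Upk2*, also from that list, had at most 7 counts in any rat.

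*Calb2* (plus strand, chr19:41482728-41509658) rose between the earlier years and Year 2 in both arms and passed no test of treatment. Age, the number of instillations, and the time of sampling cannot be told apart in this comparison. Its counts in the control rats were 0, 1, and 0 at Year 0.5, 1, 1, and 0 at Year 1, and 16, 14, and 18 at Year 2. The treated rats had 0, 0, and 0, then 1, 0, and 0, then 7, 4, and 61. All 6 rats of Year 2 were above all 12 earlier rats, and MWCNT replicate 3 of Year 2 stood far above the other 5. In the control rats, the summed counts of Year 2 were 50.3 times those of Year 0.5 after scaling (exact 95% interval from 8.61 to 2028, counting error only) and 26.2 times those of Year 1 (6.87 to 222). With MWCNT, the summed counts of Year 2 were at least 27.2-fold higher than at Year 0.5, where the 3 rats had no count and 3 counts over the group served as the floor, and at least 6.25-fold higher without replicate 3. *Calb2* rose from Year 0.5 to Year 2 in the control rats (FDR = 0.0325) and in the MWCNT-treated rats (FDR = 0.00435), and from Year 1 to Year 2 in both (FDR = 0.0366 and 0.0157), beside rises of 2.65%, 6.65%, 2.93%, and 2.68% of all genes. The first of these calls was lost without any 1 control rat of Year 0.5 and without control replicate 1 or 2 of Year 2, with an FDR of up to 0.13. *Calb2* passed the filter on low counts only through rats of Year 2, in which it was high. The FDR values of its rise with time are therefore given as a description. At Year 2 the log2 fold change of treated against control rats was 0.58 with an interval from -1.31 to 2.46, and it was -1.50 (FDR = 0.058) without MWCNT replicate 3.

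*Wt1* was the other gene that changed with time. It rose between Year 0.5 and Year 2 in the MWCNT-treated rats, by a log2 fold change of 1.56 ± 0.43 (SE, FDR = 0.0224), and the call was lost without MWCNT replicate 1 or 3 of Year 0.5 or replicate 2 of Year 2 (FDR = 0.0787, 0.08, and 0.0816). In the control rats the same difference was 0.57 ± 0.43 (SE, FDR = 0.442). The difference between these changes, the treatment by year interaction, was 0.98 ± 0.60 (SE, FDR = 0.50). None of the 9 genes had an interaction between any pair of years at an FDR below 0.05 in edgeR, and none had an unadjusted p below 0.05 there, beside 13.8% of all genes at that p for Years 0.5 and 2, 8.49% for Years 0.5 and 1, and 16.5% for Years 1 and 2. By FDR the shares of all genes were 1.31%, 0%, and 0.478%. DESeq2 called 0 of the genes to which it gave an adjusted p, and it gave none to *Calb2* in any of the 3 interactions, to *Upk1a* in those with Year 1, or to *Wt1* for Years 1 and 2.

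**Figure D2:**
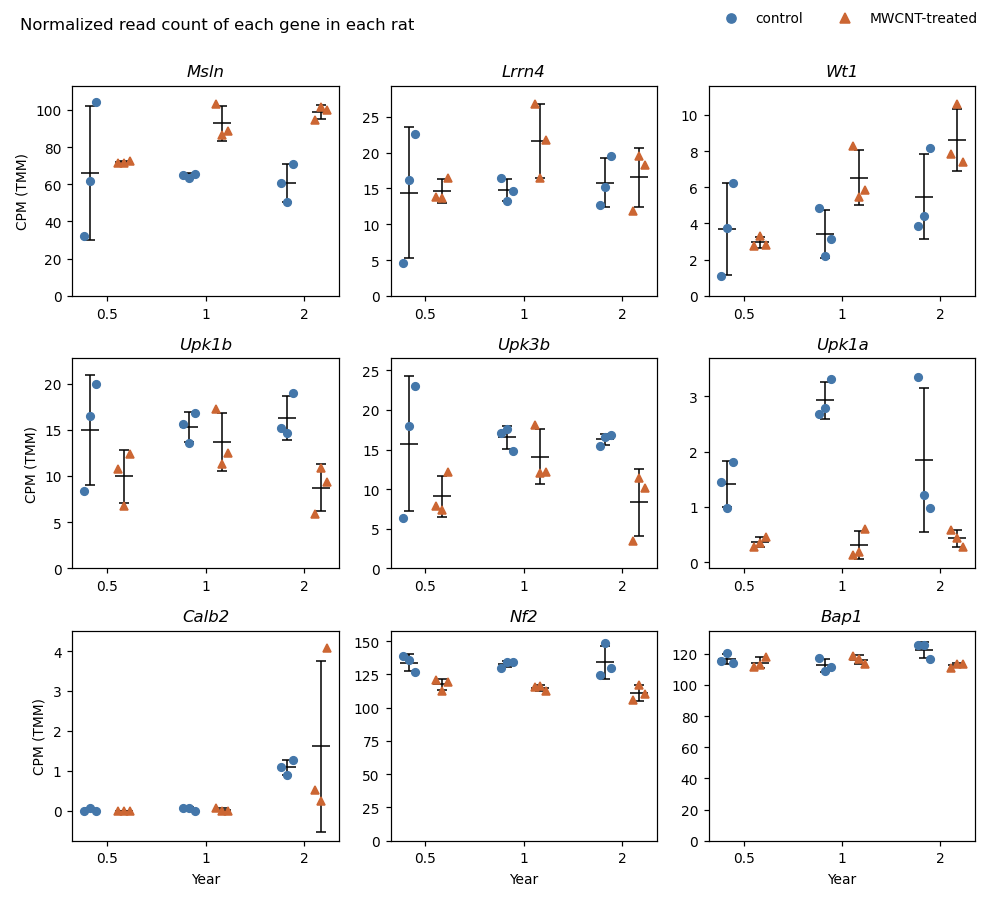
TMM-adjusted CPM (vertical axis, from 0) is plotted for each rat by year, with circles for control and triangles for MWCNT-treated rats, and bars for the mean ± SD of 3 rats. *Msln* of the treated rats lay above the controls at Years 1 and 2, *Upk1a* and *Nf2* of the treated rats lay below the controls at all time points, and *Calb2* had counts above 1 only at Year 2.

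*Nf2* (minus strand, chr14:84996905-85088523) was lowered by a small and even amount. Its CPM in the control rats was 139, 136, and 127 at Year 0.5, 130, 134, and 134 at Year 1, and 125, 148, and 129 at Year 2. With MWCNT it was 120, 113, and 119, then 115, 116, and 112, then 106, 117, and 111. Every treated rat was below all 9 control rats, the separation held by *Nf2* and *Upk1a* among the 9 genes and by 23.4% of all genes. The log2 fold changes were -0.20 ± 0.06, -0.21 ± 0.06, and -0.26 ± 0.08 at Years 0.5, 1, and 2 (SE, FDR = 0.0294, 0.0272, and 0.0214). With 1 rat left out, the log2 fold change stayed within -0.24 to -0.16, -0.23 to -0.20, and -0.31 to -0.19 in these years. The calls, however, were kept in only 1, 2, and 3 of 6 fits that left out 1 rat. Those fits left out control replicate 3 at Year 0.5, control replicate 1 or MWCNT replicate 2 at Year 1, and control replicate 1 or 3 or MWCNT replicate 2 at Year 2, and the highest FDR among the others was 0.137. The mean effect over the 3 years was -0.23 ± 0.04 (SE, FDR = 3.33e-05) and was kept in all 18 such fits.

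*Bap1* (plus strand, chr16:7336685-7345511) stayed close to its control level. The CPM spanned 109 to 125 among the 9 control animals and 111 to 119 among the 9 treated animals. The log2 fold changes of -0.04, 0.05, and -0.11 had 95% confidence intervals from -0.17 to 0.09, from -0.10 to 0.20, and from -0.25 to 0.03, so a change by 1.5 times in either direction lay outside each interval. The treated rats of Year 2 were all below their controls, although *Bap1* did not pass the test (FDR = 0.157). This depended on the scaling, because with library size only, which moved the median of all genes by -0.10 to -0.17 on the log2 scale, *Bap1* was at -0.28 (FDR = 0.00479) at Year 2. On the log2(TPM + 1) scale the difference was -0.32 (FDR = 0.0035) at Year 2 and -0.18 (FDR = 0.0328) at Year 0.5.

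In CPM, the treated and control rats did not overlap for 2 of 8 genes at Year 0.5, 5 of 8 at Year 1, and 6 of 9 at Year 2, beside 51.8%, 54.9%, and 59.8% of all genes. Separation of the groups was thus common over all genes, and the 9 genes were not set apart by it.

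The mesothelial genes other than *Calb2* varied together among rats of the same group. Deviations of log2 CPM from the group means were correlated over the 18 rats for all 36 pairs of the 9 genes, and p came from exact permutation within the 6 groups (46656 arrangements, two-sided) with Benjamini-Hochberg adjustment over the 36 pairs. Among *Msln*, *Wt1*, *Lrrn4*, *Upk1b*, and *Upk3b*, 9 of 10 pairs passed, with r from 0.634 to 0.895 over the 10 pairs, and the exception was *Wt1* with *Upk3b*. The share of pairs that would pass over all genes was not computed, so this count has no background beside it. Without the 2 outermost rats of each pair, r was 0.258 to 0.797, the lowest being that of *Wt1* with *Upk3b*, and for *Wt1* with *Upk1b* it went from 0.705 to 0.428. For *Upk1b* and *Upk3b*, Pearson's r was 0.886 (exact p = 0.0018, adjusted 0.013) and Spearman's rho was 0.868 (exact p = 0.00165, adjusted 0.0154), and r was 0.797 without control replicate 1 of Year 0.5 and MWCNT replicate 1 of Year 2, which lay farthest out. For *Msln* and *Lrrn4*, r was 0.895 (exact p = 0.00529, adjusted 0.0272) and rho was 0.837 (exact p = 0.00214, adjusted 0.0154), and r was 0.578 without control replicates 1 and 3 of Year 0.5. For *Msln* and *Upk3b*, r was 0.692 (exact p = 0.00502, adjusted 0.0272) and rho was 0.732 (exact p = 0.00596, adjusted 0.0238), but r was 0.342 without the same 2 rats, so that this relation rests on them. None of the 20 pairs of one of these 5 genes with *Upk1a*, *Calb2*, *Nf2*, or *Bap1* passed, with r from -0.475 to 0.303.

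**Figure D3:**
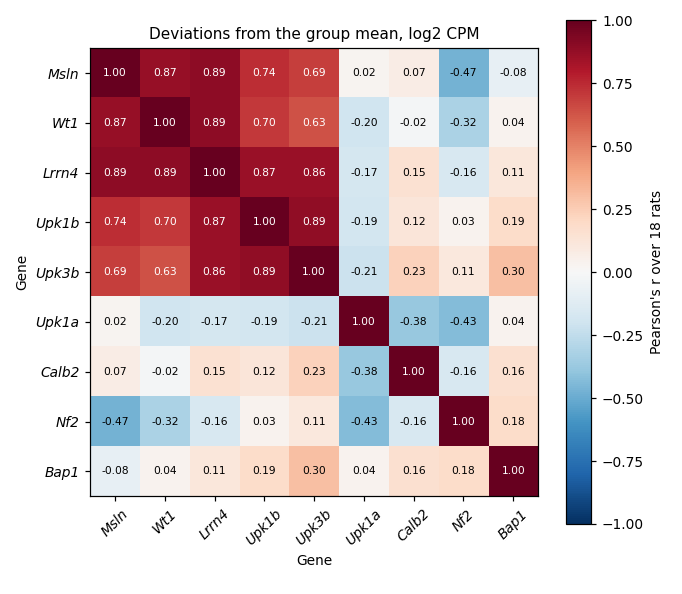
Each cell gives Pearson's r between 2 genes over 18 rats, computed on deviations of log2 CPM from the mean of the rat's group, on a colour scale from -1 to 1. *Msln*, *Wt1*, *Lrrn4*, *Upk1b*, and *Upk3b* form a block with r from 0.634 to 0.895 (0.258 to 0.797 without the 2 outermost rats of each pair), and *Upk1a*, *Calb2*, *Nf2*, and *Bap1* lie outside it.

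The genes nearest to *Upk3b* by this measure, out of 14842 genes ranked, were *Gpm6a* (r = 0.943), *Wfdc21* (0.888), *Upk1b* (0.886), *Bnc1* (0.885), and *Aldh1a2* (0.874). *Lrrn4* ranked 7 for *Upk3b*, *Msln* ranked 89, *Wt1* ranked 153, and *Upk1a* ranked 11535. The genes nearest to *Msln* were *Steap4* (r = 0.936), *Tcf23* (0.918), *Lrrn4* (0.895), *Ptgds* (0.880), and *Wt1* (0.868). Those nearest to *Lrrn4* were *Sbsn* (r = 0.925), *Msln* (0.895), *Wt1* (0.894), *Bnc1* (0.894), and *Gpm6a* (0.893). Control replicate 1 of Year 0.5, low for *Msln*, *Wt1*, *Lrrn4*, *Upk1b*, and *Upk3b*, takes part in these values, and without it r was 0.920 for *Upk3b* with *Gpm6a* and 0.783 for *Msln* with *Lrrn4*.

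The ratio of *Msln* counts to *Upk3b* counts within each rat was 3.05 to 5.06 (median 3.94) among the 9 control animals and 5.71 to 27.0 (median 8.88) among the 9 treated animals, without overlap. The highest value came from MWCNT replicate 1 of Year 2, and without this rat the highest ratio was 9.91. The ratio of *Lrrn4* to *Upk3b* also separated the rats, at 0.709 to 1.16 in the control rats and 1.36 to 3.40 in the treated rats, of which 3.40 belonged to the same rat and the next value was 1.86. The ratio of *Wt1* to *Upk3b* overlapped, at 0.125 to 0.488 and 0.231 to 2.23. The ratio of *Upk1b* to *Upk3b* overlapped as well, at 0.771 to 1.31 and 0.925 to 1.69, as did that of *Msln* to *Lrrn4*, at 3.32 to 7.14 and 3.85 to 7.94. Of all genes tested, 3.08% had a ratio to *Upk3b* that separated the 9 treated from the 9 control rats, and 6.95% a ratio to *Msln*. These ratios were chosen after the values were seen and are given as a description.

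**Figure D4:**
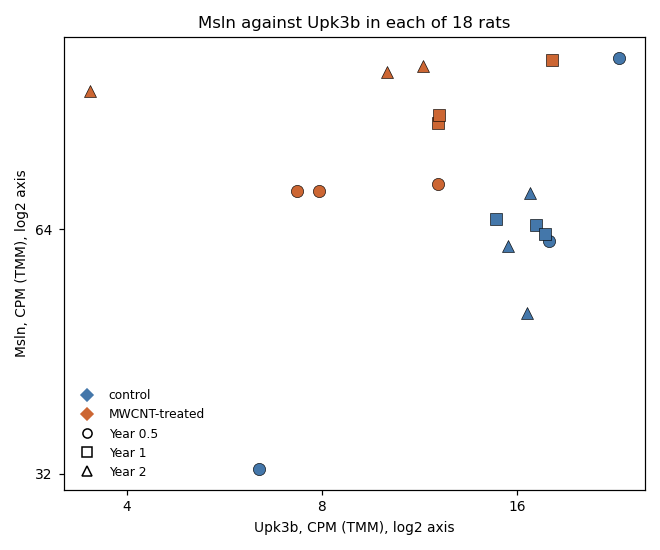
*Msln* CPM (vertical log2 axis) is plotted against *Upk3b* CPM (horizontal log2 axis), 1 point for each of 18 rats, coloured by treatment and shaped by year. The groups overlap on each axis alone, but the treated rats have *Msln* to *Upk3b* ratios of at least 5.71 and the control rats of at most 5.06, and control replicate 1 of Year 0.5 lies low on both axes.

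Further genes of mesothelial cells were counted from a list of 18, of which the last 10 are also expressed by other lung cells. Of 17 tested, 1 rose and 5 fell at Year 0.5, 3 rose and 5 fell at Year 1, and 2 rose and 7 fell at Year 2. These are 35.3%, 47.1%, and 52.9% of the list, beside 38.8%, 41.2%, and 49.2% of all genes. Over the 3 years, 4 rose and 8 fell, 70.6% beside 66.1% of all genes, with a median log2 fold change of -0.06 beside -0.01 over all genes. *Gpm6a*, a neuronal and mesothelial membrane glycoprotein gene, had a CPM of 13.3 to 34.7 in the control rats and 4.75 to 20.2 in the MWCNT-treated rats. It fell at Year 1 (log2 fold change of -0.80 ± 0.14, SE, FDR = 0.00218) and at Year 2 (-1.63 ± 0.27, SE, FDR = 0.00109), when every treated rat was below every control rat. *Bnc1*, which encodes the transcription factor basonuclin, fell by 1.14 ± 0.35 at Year 2 (SE, FDR = 0.0237), and *Nkain4* fell by 0.84 ± 0.17 at Year 0.5 and by 1.23 ± 0.19 at Year 2 (SE, FDR = 0.00523 and 0.000734). *Efemp1* and *Thbd*, the genes of fibulin-3 and thrombomodulin, fell at all 3 time points, by 1.16 ± 0.13 and 1.03 ± 0.12 at Year 2 (SE). Both are among the last 10 of the list, also expressed by other lung cells, as is *Has1*. In the ranking by correlation with *Upk3b*, *Efemp1* was at 151 (r = 0.634) and *Thbd* at 5051 (r = 0.129). *Has1*, a hyaluronan synthase gene, rose by a log2 fold change of 1.24 ± 0.36 at Year 1 (SE, FDR = 0.0212), from 9 to 17 counts in the control rats to 27 to 33 in the treated rats. The control rats of Year 1 alone would not have carried *Has1* past the filter on low counts, so this FDR is given as a description. At Year 2 the list held 5 DEGs that fell, all named here, and 1 DEG that rose, which is not among the genes named. The named genes thus hold more of the falls than of the rises.

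The Hippo pathway, which merlin activates, carries its signal through the LATS kinases to YAP and TAZ, coactivators of the TEAD factors. Of 17 genes of the pathway, 2 rose and 7 fell at Year 0.5, 1 rose and 9 fell at Year 1, and 4 rose and 9 fell at Year 2. These are 52.9%, 58.8%, and 76.5% of the list, beside 38.8%, 41.2%, and 49.2% of all genes called and 18.6%, 19.6%, and 24% of all genes lower. Their median log2 fold changes were -0.26, -0.26, and -0.38, beside -0.02, 0.00, and -0.01 over all genes. With library size only, 1, 0, and 1 rose and 11, 13, and 11 fell. Of 14315, 14345, and 14361 genes tested, 2178, 2147, and 2441 then rose and 4020, 4316, and 5258 fell. That scaling moved the median of all genes by -0.10, -0.13, and -0.17 on the log2 scale. The kinase gene *Lats2* fell by 0.64 ± 0.08, 0.58 ± 0.10, and 0.90 ± 0.09 on the log2 scale (SE, FDR = 0.000442, 0.00252, and 4.57e-05). *Amotl2*, of the angiomotin family, fell by 0.70, 0.58, and 1.14, *Tead1* by 0.49, 0.83, and 0.94, *Tead4* by 0.41, 0.59, and 0.88, and *Wwtr1*, which encodes TAZ, by 0.26, 0.26, and 0.46. *Ccn2*, a target gene of YAP that encodes connective tissue growth factor, rose by 0.67 ± 0.12, 0.48 ± 0.16, and 0.63 ± 0.08 (SE, FDR = 0.00207, 0.0396, and 0.000144), and with library size only the middle value had an FDR of 0.114.

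**Figure D5:**
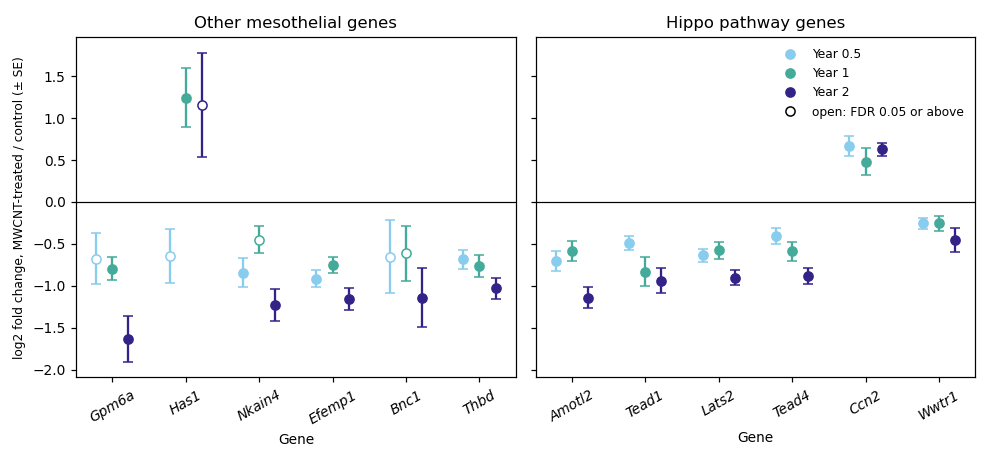
The log2 fold change of MWCNT-treated against control rats (vertical axis, ± SE) is plotted by year for 6 other mesothelial genes and 6 Hippo pathway genes, with open points where the FDR was 0.05 or above. *Has1* and *Ccn2* are the genes above 0 with a filled point, and *Efemp1*, *Thbd*, *Amotl2*, *Tead1*, *Lats2*, *Tead4*, and *Wwtr1* are below 0 with filled points at all 3 time points.

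Of 7 genes whose proteins bind BAP1, 1 rose and 1 fell over the 3 years, 28.6% beside 66.1% of all genes. *Asxl1*, a cofactor of the deubiquitinase, rose by 0.35 ± 0.07 at Year 0.5 and by 0.27 ± 0.08 at Year 2 (SE, FDR = 0.00514 and 0.0143), the latter with an FDR of 0.299 with library size only. *Kdm1b*, a histone demethylase gene, fell by 0.34 ± 0.08 at Year 2 (SE, FDR = 0.00499). Other genes that mesotheliomas inactivate were also examined. *Cdkn2a*, which encodes cell cycle inhibitors, rose by a log2 fold change of 1.40 ± 0.46 at Year 0.5 and 1.95 ± 0.47 at Year 1 (SE, FDR = 0.0383 and 0.00984), on 3 to 10 counts in the control rats and 14 to 36 in the treated rats of those years. The gene passed the filter on low counts in those years only through the treated rats, in which it was high. Its FDR values of those years are therefore given as a description. At Year 2 its log2 fold change was 1.14 ± 0.51 (SE, FDR = 0.0913), on 26, 20, and 14 counts without MWCNT and 19, 34, and 81 with it, the last of which stood apart. Its neighbour gene *Mtap*, which encodes a methionine salvage enzyme, fell by 0.27, 0.30, and 0.40 (FDR = 0.0342, 0.0142, and 0.00143), and *Cdkn2b* fell by 0.72 ± 0.11 at Year 2 (SE, FDR = 0.000492). *Setd2*, a histone methyltransferase gene, fell by 0.31 ± 0.09 at Year 1 (SE, FDR = 0.0257).

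Among 4 other proteins measured in body fluids of mesothelioma patients, *Spp1*, which encodes osteopontin, went from a CPM of 0.448 to 4.69 in the control rats to 803 to 1513 in the MWCNT-treated rats. Its log2 fold changes were 8.97 ± 0.28, 9.40 ± 0.21, and 9.23 ± 0.54 (SE, FDR = 1.3e-06, 4.31e-08, and 2.58e-06). *Thbs2*, which encodes thrombospondin-2, was at 3.78 to 10.2 CPM in the control rats and 41.4 to 109 CPM in the treated rats, and rose by 2.58 ± 0.16, 3.07 ± 0.13, and 4.03 ± 0.21 (SE). *Efemp1* fell, and *Hmgb1*, the gene of a chromatin protein released from damaged cells, fell by 0.30 ± 0.08 at Year 0.5 and 0.34 ± 0.12 at Year 2 (SE, FDR = 0.0138 and 0.0454).

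The RNA levels of many cell type markers in the lung pieces differed between treated and control rats, beside all of the results above. The total counts per rat were 13297643 to 17868851 in the control rats and 14661589 to 21130757 in the treated rats. The lung identity of the pieces was plain, with *Sftpc*, the surfactant protein C gene, at 17721 to 23609 TPM in control and 32139 to 39059 TPM in treated rats. Summed TPM of 5 macrophage markers was 24178 to 30309 in control and 54890 to 63900 in treated rats, and that of 6 alveolar type 2 markers was 27305 to 36010 and 50695 to 60269. The sums of 5 alveolar type 1 markers (4789 to 5688 against 2227 to 3501), 4 endothelial markers (1795 to 2320 against 539 to 1238), and 5 smooth muscle markers (969.7 to 1563 against 484 to 768) were lower in treated rats. So were those of 4 club cell markers (18171 to 32942 against 10492 to 15540), 5 ciliated cell markers (342 to 443 against 220 to 316), and 5 lymphocyte markers (72.2 to 118 against 25.6 to 64.7). The sums of 5 fibroblast markers (594 to 1039 against 456 to 663) and 5 adipocyte markers (2.11 to 7.61 against 1.63 to 3.89) overlapped. Summed TPM of 16 heart muscle markers was 78.6 to 944 in control and 17.9 to 279 in treated rats, and all 16 were detected in both. In the mean effect over the 3 years, the 14 that were tested all fell, beside 33.4% of all genes. By single year, 11 of 14 fell at Year 0.5, 2 of 14 at Year 1, and 2 of 12 at Year 2. The shares of all genes lower in those years were 18.6%, 19.6%, and 24%. The part of these differences in the values of the mesothelial and mesothelioma genes was not tested. With library size only, 2178 genes rose and 4020 fell at Year 0.5 instead of 2890 and 2659, 2147 and 4316 instead of 3095 and 2818 at Year 1, and 2441 and 5258 instead of 3616 and 3451 at Year 2.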

How the data were processed

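Total RNA of 18 rat lungs was sequenced by the authors and processed in CLC Genomics Workbench 22.0.2; the processing notes name build Rnor_6.0. The authors deposited counts per gene, which are not normalized, and TPM, which the deposited tables scale for gene length and library. Strand use in counting is not given in the sources used here. The 36 columns of deposited RPKM and CPM values and the 18 columns of the authors' own comparisons (fold changes and p-values) were not used.

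Counts of the 6 rats of each year were fitted in R 4.3.3 with edgeR 4.0.16 (quasi-likelihood test, TMM, Benjamini-Hochberg over all genes tested). The filter was filterByExpr at its defaults, about 10 counts in as many rats as the smallest group holds and 15 in total. A gene can pass it through 1 group alone, as *Upk1a* did through the control rats. Mean effects, interactions, and time effects came from one model of the 18 rats. The scripts were tested on simulated data. CPM was computed from the counts with TMM factors. Correlations used log2 CPM with a prior count of 2, in Python 3.11.15 with scipy 1.17.1.

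The genes, lists, and tests were chosen with earlier results of these data known. From each list, up to 6 genes are named, DEGs by the size of their change and then genes that passed in most years. *Upk2*, *Upk3bl1*, *Pdpn*, and *Upk3a* are named in addition, after their values were seen. For cell type lists, sums are given. One of the listed genes is not reported here. The alternatives were no filter, at least 10 counts in every rat, library size only, DESeq2 1.42.0, limma 3.58.1 on log2(TPM + 1) and log2(TPM + 0.1), a block for the replicate number, a single model for the 18 rats, and each rat left out. Labels name each sample as 1 rat, and p-values measure the spread between rats. Depth, given with the report as total counts per rat, limits the genes with counts below about 10.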

Additional observations from a re-analysis of the deposited data

Results flagged for a closer look

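The effect of treatment on *Thbs2* differed between years. It was larger at Year 2 than at Year 0.5 by 1.45 ± 0.28 on the log2 scale (SE, edgeR interaction, FDR = 0.0187), with a log2 fold change of 2.58 at Year 0.5 and 4.03 at Year 2, and CPM of 49.4, 58.1, and 43.5 in the MWCNT-treated rats of Year 0.5 and 109, 81.8, and 97.5 in those of Year 2. The effect on *Pdpn*, the podoplanin gene of mesothelial and alveolar type 1 cells, also differed. It was -0.23 at Year 0.5, -0.22 at Year 1, and -0.72 at Year 2, and the interaction was -0.48 ± 0.09 for Year 2 against Year 0.5 (SE, FDR = 0.014) and -0.48 ± 0.09 for Year 2 against Year 1 (SE, FDR = 0.0286). For *Has1*, every MWCNT-treated rat was below the control rats at Year 0.5 (log2 fold change of -0.65) and above them at Year 1 (1.24), but the test of this difference did not pass (1.88 ± 0.67, SE, FDR = 0.545).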

How the results depend on the processing

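Leaving out 1 rat at a time gave 1 to 3 genes changed at Year 0.5, 2 to 5 at Year 1, and 3 to 5 at Year 2, where 2, 5, and 5 were reported. The mean effect was called for 5 or 6 genes, an interaction for 0, and a change with time for 0 to 1 in the control and 1 to 3 in the MWCNT-treated rats. Without 1 rat the log2 fold change ranged from -0.22 to 0.60 for *Msln*, from -0.76 to 0.31 for *Wt1*, and from -0.42 to 0.51 for *Lrrn4* at Year 0.5, and from -0.0571 to 0.26 for *Lrrn4* and -1.50 to 1.09 for *Calb2* at Year 2, so these turned direction. A filter of at least 10 counts in every rat left 1 gene changed at Year 0.5, 0 changed with time in the control rats, and 1 in the MWCNT-treated rats, because it removed *Upk1a* and *Calb2*. Over all genes, 5388 of 13557 were called at Year 0.5 with that filter. At Year 1 the count was 3 with library size only, 2 in one model of all rats, and 3 with limma for either pseudocount added to TPM. Over all genes, these settings called 6463 of 14345, 6702 of 14843, and 7135 or 7066 of 14345 at Year 1. DESeq2 called 0 genes changed with time in the control rats and gave *Calb2* no adjusted p there. With the replicate number as a block, 1 gene was changed at Year 0.5 and 4 at Year 1, *Nf2* being lost at both (FDR = 0.0573 and 0.0585), and the other counts were unaltered by the block. Same-numbered rats deviated from their group means with correlations of -0.147 to 0.107 across genes, so they share only a number.

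Reversed values, all in comparisons that did not pass the main test, were -0.0896 for *Lrrn4* at Year 0.5, -0.0872 for *Bap1* at Year 1, and -0.0905 for *Lrrn4* at Year 2 with library size only. With limma on log2(TPM + 1) they were -0.19 for *Bap1* at Year 1, -0.14 for *Lrrn4* and -0.11 for *Calb2* at Year 2, and with log2(TPM + 0.1) they were -0.19, -0.15, and -0.50. With the block, *Calb2* at Year 2 was -0.0759. The cause was not tested. With all rats kept, 227 values of single genes kept their direction and side of the threshold, 13 lost the call, and 6 gained one. The exact permutation test planned for genes below the filter was not run, since all 9 genes passed the filter over 18 rats. *Upk1a* passed it only through the control rats and *Calb2* only through rats of Year 2.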
